A study of Rattus norvegicus with 4 samples.

Results

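Arginine is the shared substrate of enzymes that make nitric oxide and enzymes that make ornithine, and 10 rat genes of this branch point were followed in synovium, the tissue that lines the joint. They were taken by symbol: the nitric oxide synthase genes Nos2 and Nos3, the arginase genes Arg1 and Arg2, the arginine-rebuilding enzyme genes Ass1 and Asl, the arginine transporter genes Slc7a1 and Slc7a2, the polyamine enzyme gene Odc1 and the cofactor enzyme gene Gch1. All 10 were found among the 17899 genes of the table. The 4 bulk mRNA libraries came from osteoarthritic rats: AdMSC 1 from a joint given human AdMSCs, SyMSC 1 from a joint given human SyMSCs, and PBS 1 and PBS 2 from tissue given PBS, a salt buffer. AdMSC and SyMSC are the labels' own short names for human stem cells, commonly those of adipose tissue and of synovium, and tissue was taken the day after the cells were given. The titles put PBS 1 beside AdMSC 1 with the word Ad and PBS 2 beside SyMSC 1 with the word Sy, and call both PBS libraries "mix" without explanation. The title of the series contrasts tissue before injection with tissue after it, but the label names PBS as the treatment of the control libraries. The labels used here do not give the means of inducing arthritis, the strain, sex and age of the rats or the cell dose. Nor do they say whether each library is a separate animal, so the p-values reflect only how much these libraries differ, which may be technical.

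As background, nitric oxide synthases turn arginine into nitric oxide and citrulline. The inducible enzyme, encoded by Nos2, is switched on at the level of transcription by cytokines and microbial products, mainly in macrophages and other activated cells, while the Nos3 enzyme belongs to the vessel lining. Arginases split arginine into ornithine and urea, so that both enzyme classes draw on 1 pool. Ornithine feeds polyamine and proline synthesis, citrulline can be rebuilt into arginine by the products of Ass1 and Asl, and Gch1 makes the first step towards tetrahydrobiopterin, a cofactor that nitric oxide synthases need. In arthritic joints, nitric oxide from the inducible enzyme is a long-studied mediator of inflammation.

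Promoter sequence from RefSeq (build GRCr8) was matched by gene ID for 6 of the 10 genes (Nos3, Ass1, Asl, Slc7a1, Odc1 and Gch1). Those of Gch1, Odc1 and Nos3 are printed because these genes passed the test described below, Gch1 and Odc1 upwards and Nos3 downwards. Each is the 250 bases before the gene's start, 5′ to 3′ on the gene's own strand, with motif matches in capitals.
Gch1, chr15:22917413-22917662, minus strand: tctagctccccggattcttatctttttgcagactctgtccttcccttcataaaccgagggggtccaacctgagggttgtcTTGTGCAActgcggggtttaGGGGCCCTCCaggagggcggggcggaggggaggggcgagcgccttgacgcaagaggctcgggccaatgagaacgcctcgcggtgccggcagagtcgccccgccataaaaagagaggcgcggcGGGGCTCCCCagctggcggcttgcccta
Odc1, chr6:46058415-46058664, plus strand: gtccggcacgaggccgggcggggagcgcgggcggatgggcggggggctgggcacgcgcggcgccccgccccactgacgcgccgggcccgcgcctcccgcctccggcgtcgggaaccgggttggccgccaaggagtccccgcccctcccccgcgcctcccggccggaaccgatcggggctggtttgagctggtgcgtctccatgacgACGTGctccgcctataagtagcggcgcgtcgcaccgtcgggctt
Nos3, chr4:11706582-11706831, minus strand: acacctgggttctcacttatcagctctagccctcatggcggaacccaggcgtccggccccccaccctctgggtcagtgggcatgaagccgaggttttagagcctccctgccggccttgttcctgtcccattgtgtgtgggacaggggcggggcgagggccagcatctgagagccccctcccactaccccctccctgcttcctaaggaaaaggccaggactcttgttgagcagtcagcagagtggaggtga
The search covered both strands for the NF-kB motif, the C/EBP motif (TTGCNNAA), the interferon regulatory factor motif, the STAT motif (TTCNNNGAA), the hypoxia response motif (ACGTG), the E-box (CACGTG, which contains the hypoxia motif) and the TATA box (TATAAA). Gch1 held NF-kB matches at 150 to 141 and at 28 to 19 bases before its start and a C/EBP match at 170 to 163. Of all 33469 promoter windows of that length, 6.33% held an NF-kB match and 9.22% a C/EBP match. Odc1 held a hypoxia response match at 44 to 40 bases before its start, a motif present in 16.6% of windows. Nos3 held none of these letters in this window. A match describes the letters and says nothing of binding in these tissues.

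Levels are in TPM, a length-normalised share of all transcripts of a library, so they may be compared between genes. Read depth is unknown, and so is the precision of low levels. Differences are on the log2(TPM + 1) scale, on which changes of low genes, and the spread between their libraries, come out too small. They were tested with limma over the 13371 genes that reached 1 TPM in 2 or more libraries. A gene passed at an adjusted p under 0.05. Over all tested genes 48.4% passed for injected against PBS, 23.7% upwards and 24.7% downwards, and the median change was 0.00. All 10 arginine genes cleared the filter, 8 of them with at least 1 TPM in every library. Of the 10, 4 rose (Nos2, Arg1, Gch1 and Odc1), 1 fell (Nos3) and 5 did not pass, a share close to that of all genes. Their median change was 0.51. The injected libraries lay above both PBS libraries for 7 genes and below both for Nos3. Of all tested genes, 78.8% had no overlap, 39.5% with injected libraries higher and 39.4% with them lower. Checked against its defining genes, the tissue held synovial fibroblast transcripts in every library: Prg4, the lubricin gene, stood at 2448 to 4192 TPM. Of 12 such genes 11 fell after injection and Prg4 did not pass, and the sum of the list was 32840 to 39865 TPM with PBS and 11493 to 16909 TPM after injection. Of 8 skeletal muscle genes 4 fell, of 7 adipocyte genes 3 fell and of 6 erythroid genes none passed, and no gene of these lists rose. The 2 injected libraries differ in cell source, so their spread includes any difference between sources.

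**Figure D1:**
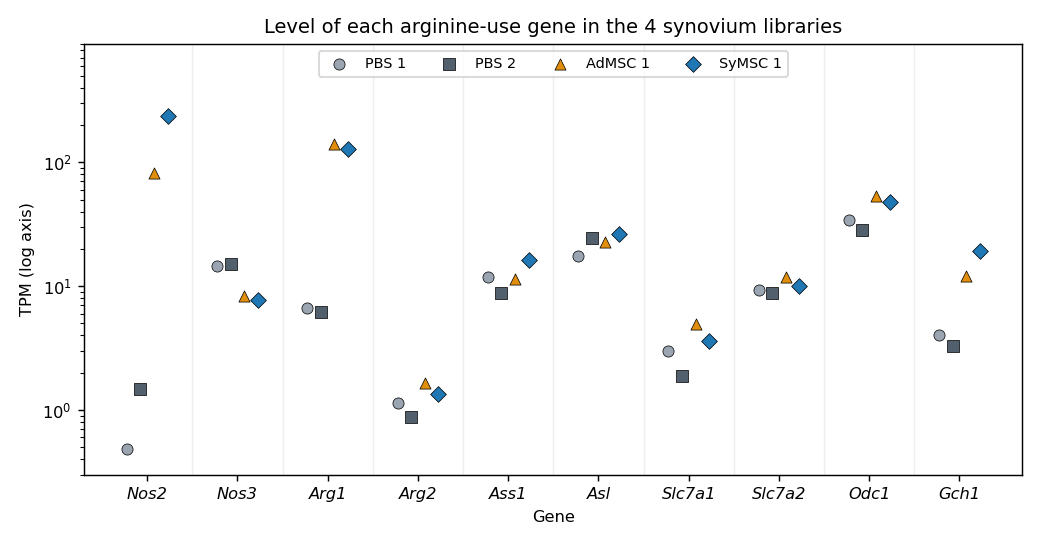
TPM on a log axis for each of the 10 genes, with 1 point per library (circles PBS 1, squares PBS 2, triangles AdMSC 1, diamonds SyMSC 1). Nos2 spans 0.48 to 234 TPM and Arg1 6.22 to 141 TPM, while Slc7a2 stays between 8.83 and 11.9 TPM.

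The order of the genes by level changed with injection. In PBS 1 and PBS 2 the most abundant of the 10 was Odc1, followed by Asl and Nos3, and Nos2 and Arg2 stood last. In AdMSC 1 the order was led by Arg1 and then Nos2, and in SyMSC 1 by Nos2 and then Arg1, with Odc1 next in both. The TPM of the 10 genes summed to 102 in PBS 1, 99.1 in PBS 2, 350 in AdMSC 1 and 495 in SyMSC 1. Nos2 and Arg1 together made up 6.97% and 7.77% of that sum in the PBS libraries, 63.8% in AdMSC 1 and 73.2% in SyMSC 1. What was added to the summed level was thus mostly transcript of the enzymes that consume arginine, beside smaller gains for Odc1 and Gch1.

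Nos2 (gene ID 24599), the inducible synthase, stood at 0.48 TPM in PBS 1, 1.48 TPM in PBS 2, 81.9 TPM in AdMSC 1 and 234 TPM in SyMSC 1. Both injected libraries lay far above both PBS libraries; the lower injected value was 55.3 times the higher PBS value. The mean was 158 ± 108 TPM (SD, n = 2) after injection and 0.980 ± 0.707 TPM (SD, n = 2) with PBS. The change was 6.19 on the log2 scale (SE 0.64, 95% interval 4.29 to 8.09, limma adjusted p = 0.00566), with the next-to-highest rise of all 13371 genes. The call rests on both PBS libraries: without PBS 1 the change was 5.82 (limma adjusted p = 0.0655) and without PBS 2 it was 6.56 (limma adjusted p = 0.0543). The PBS values differ 3.08-fold from each other at a level where depth cannot be judged, and Nos2 was higher after injection in both pairs of libraries that share a title word.

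Nos3 (gene ID 24600), the endothelial synthase, went the other way. It stood at 14.4 TPM in PBS 1 and 14.95 TPM in PBS 2 against 8.39 TPM in AdMSC 1 and 7.73 TPM in SyMSC 1, so the arms did not overlap and libraries within an arm lay close together. The log2 change was -0.79 (SE 0.14, 95% interval -1.14 to -0.45, limma adjusted p = 0.00559), a PBS mean 1.82 times the injected mean. Nos3 passed under all 9 alternative settings of this comparison. Of the summed Nos2 and Nos3 TPM, Nos2 made up 3.22% in PBS 1 and 9.01% in PBS 2 but 90.7% in AdMSC 1 and 96.8% in SyMSC 1. Nos1, the neuronal synthase, was at or below 0.19 TPM in every library and was not tested.

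Endothelial marker genes moved in the same direction as Nos3. Of 15 such genes tested, 14 fell and 1 (Tie1) did not pass (93.3% called, beside 48.4% of all genes). Their median log2 change was -1.62. Their summed level was 1595 to 1793 TPM in the PBS libraries and 668 to 721 TPM in the injected ones, and none was listed at 0. Of the 15, 13 had a lower log2 change than Nos3. As a percentage of that summed level, Nos3 was 0.905 in PBS 1, 0.834 in PBS 2, 1.16 in AdMSC 1 and 1.16 in SyMSC 1, so relative to these markers Nos3 was not lower after injection. In bulk tissue, fewer cells of a type and less RNA per cell cannot be told apart.

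Arg1 (gene ID 29221), the cytosolic arginase of liver and of some macrophages and granulocytes, stood at 6.66 TPM in PBS 1, 6.22 TPM in PBS 2, 141 TPM in AdMSC 1 and 128 TPM in SyMSC 1. The arms lay far apart and the libraries within each arm close together. The mean was 135 ± 9.42 TPM (SD, n = 2) after injection and 6.44 ± 0.311 TPM (SD, n = 2) with PBS, 20.9 times as high. The log2 change was 4.19 (SE 0.13, 95% interval 3.87 to 4.50, limma adjusted p = 0.000161), and the gene passed under all 9 alternative settings of this comparison, with changes from 4.12 to 4.36. Its rise ranked at position 36 among all tested genes. Of the 5 hepatocyte genes matched, 2 cleared the filter: Serpina1 fell, from 52.9 and 48.2 TPM with PBS to 10.9 and 15.45 TPM in AdMSC 1 and SyMSC 1, and Apoa1 did not pass. The other 3, Alb, Fgb and Cyp2e1, were below the filter, and Alb, the albumin gene, lay between 0.12 and 1.22 TPM.

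Arg2 (gene ID 29215), the mitochondrial arginase, stayed near 1 TPM. It stood at 1.14 and 0.87 TPM in PBS 1 and PBS 2 and at 1.64 and 1.34 TPM in AdMSC 1 and SyMSC 1. The injected values lay just above the PBS values, but the log2 change of 0.31 (SE 0.19, 95% interval -0.15 to 0.77) did not pass (limma adjusted p = 0.213). Arg1 made up 85.4% and 87.7% of the summed arginase TPM in the PBS libraries and 98.9% and 98.96% in AdMSC 1 and SyMSC 1.

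**Figure D2:**
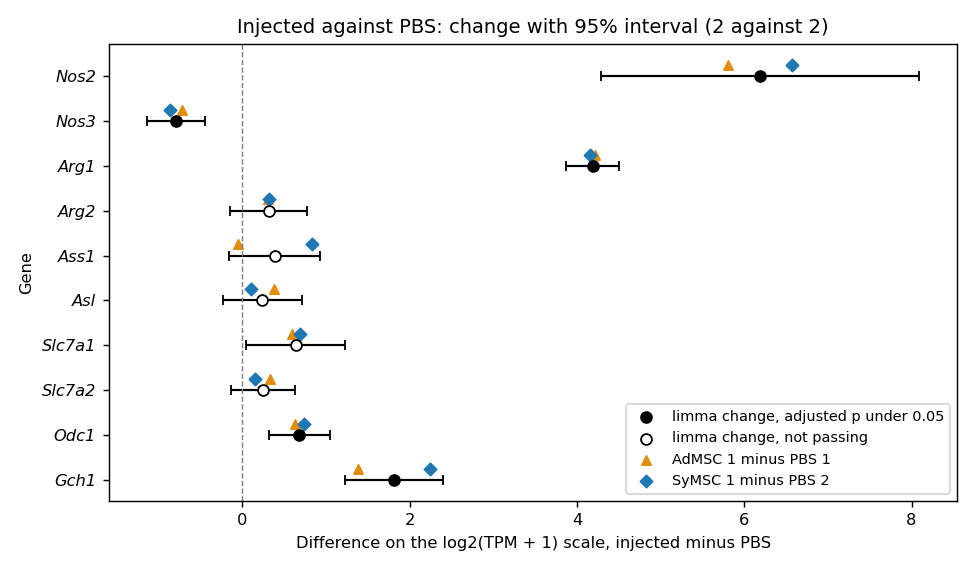
Difference between injected and PBS libraries on the log2(TPM + 1) scale for each gene, as the limma change with its 95% interval (black; filled where adjusted p is under 0.05), and the difference within each pair of libraries that share a title word (triangles Ad, diamonds Sy). Nos2 (6.19) and Arg1 (4.19) stand apart from the other genes, and Nos3 (-0.79) is the 1 gene whose limma change is below 0; the Ad pair difference of Ass1 (-0.056) is also below 0.

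Nos2 and Arg1 are often read as markers of opposed macrophage states, and here both rose in the same libraries. Their ratio differed between libraries. Nos2 was at 0.0721 of the Arg1 level in PBS 1, 0.238 in PBS 2, 0.579 in AdMSC 1 and 1.83 in SyMSC 1. Arg1 was thus the more abundant transcript in 3 libraries and Nos2 in SyMSC 1. Bulk values do not show whether the same cells carried both transcripts.

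**Figure D3:**
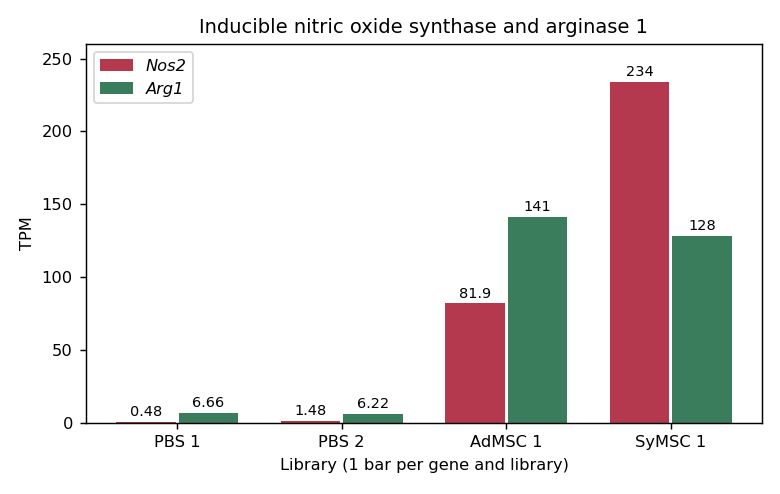
Nos2 and Arg1 levels in TPM on a linear axis, 1 bar per gene and library, with no error bars because each bar is 1 library. Arg1 is alike in AdMSC 1 (141) and SyMSC 1 (128), whereas Nos2 is at 81.9 and 234.

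The summed levels of leukocyte markers were also higher after injection, and their part in the rises of Nos2 and Arg1 was not tested. Of 13 monocyte and macrophage genes tested, 12 rose and 1 (Adgre1) did not pass (92.3% called, beside 48.4% of all genes). Their median log2 change was 1.73. The summed level of that list was 10339 to 11713 TPM with PBS and 27000 to 36446 TPM after injection, with no gene at 0. Lyz2 made up most of it, at 8163 and 9237 TPM with PBS, 19301 TPM in AdMSC 1 and 27210 TPM in SyMSC 1. Percentages of this sum given below are thus mostly relative to that gene. Of 17 neutrophil genes tested, 7 rose and 10 did not pass (41.2% called, beside 48.4% of all genes), with a median of 2.20. The changes ran from -0.84 for Mpo, which did not pass, to 5.86 for Mcemp1, and their summed level was 189 to 458 TPM with PBS and 2783 to 5079 TPM after injection. S100a8 and S100a9 were its largest parts after injection, at 628 and 845 TPM in AdMSC 1 and 1149 and 1521 TPM in SyMSC 1. They stood at 109 and 96.7 TPM in PBS 1 and 30.7 and 27.8 TPM in PBS 2. Ngp stood at 80.8 TPM in PBS 1 and 5.97 TPM in PBS 2. Percentages of the neutrophil sum thus lean on a few genes. Cxcr1, Ltf and Fpr2 were at 0 in both PBS libraries, and Ltf also in AdMSC 1; none of these exceeded 0.64 TPM in any library. The neutrophil count was 4 without SyMSC 1. Nos2 had a larger log2 change than each of the 17 neutrophil genes (highest 5.86, Mcemp1) and each of the 13 macrophage genes (highest 3.61, Cx3cr1), and Arg1 a larger one than each macrophage gene and 12 of the neutrophil genes. As a percentage of the summed macrophage level, Arg1 was 0.0644 and 0.0531 in the PBS libraries, 0.523 in AdMSC 1 and 0.351 in SyMSC 1. As a percentage of the summed neutrophil level it was 1.45 in PBS 1, 3.29 in PBS 2, 5.08 in AdMSC 1 and 2.52 in SyMSC 1, so that on this measure the arms overlapped. Nos2 as a percentage of the summed neutrophil level was 0.105 in PBS 1, 0.782 in PBS 2, 2.94 in AdMSC 1 and 4.61 in SyMSC 1. The rat values could also hold reads from the injected human cells; the labels used here name no step that separates the species, and this was not tested.

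Genes with the most similar pattern over the 4 libraries were sought among 9675 other genes with a mean of at least 5 TPM, by the distance between centred log2(TPM + 1) profiles, as a description with no test. For Nos2 they were Stfa2 (distance 0.41), a stefin gene of a family of close copies whose value is uncertain, Cxcl3 (0.55), a neutrophil chemoattractant gene, Mcemp1 (0.59), the decoy receptor gene Il1r2 (0.78) and the lectin receptor gene Clec4e (0.82). For Arg1 they were Cd8a (0.38), the signalling adaptor gene Scimp (0.38), the leukotriene B4 receptor gene Ltb4r (0.46), Tlr1 (0.55) and Mchr1 (0.56). For Nos3 they were Ctdsp2 (0.02), Zfyve21 (0.02), Arhgap29 (0.03), Klhl8 (0.03) and Mbtps1 (0.04). For Slc7a2 they were Tmem135 (0.02), Raver1 (0.03), Ylpm1 (0.03), Timm21 (0.03) and A3galt2 (0.04).

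Gch1 (gene ID 29244), which limits the rate of tetrahydrobiopterin synthesis, stood at 4.05 TPM in PBS 1, 3.30 TPM in PBS 2, 12.2 TPM in AdMSC 1 and 19.4 TPM in SyMSC 1. The arms did not overlap, and SyMSC 1 was the highest library, as for Nos2. The log2 change was 1.81 (SE 0.24, 95% interval 1.23 to 2.40, limma adjusted p = 0.00211), 4.29 times the PBS mean, and it passed under all 9 alternative settings of this comparison. Gch1 transcript exceeded Nos2 transcript 8.44-fold in PBS 1 and 2.23-fold in PBS 2, while Nos2 exceeded Gch1 6.73-fold in AdMSC 1 and 12.1-fold in SyMSC 1.

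The other enzymes of the cofactor did not move as a block. Of 7 genes of tetrahydrobiopterin synthesis and recycling, 2 rose, 1 fell and 4 did not pass (42.9% called, beside 48.4% of all genes; median -0.07). Spr, the last enzyme of the synthesis, rose by 0.55 on the log2 scale. Pcbd1, a recycling enzyme, fell by 1.22. Gchfr, whose product restrains the Gch1 enzyme, stood at 23.9 and 22.1 TPM with PBS and 22.3 and 21.5 TPM after injection and did not pass. Without PBS 2 the limma call of Spr ended (adjusted p = 0.0772), and that of Pcbd1 ended without AdMSC 1 (0.098) or SyMSC 1 (0.142). Without PBS 1, 2 genes of the list fell.

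Ass1 (gene ID 25698), the synthetase that commits citrulline to arginine, stood at 11.9 TPM in PBS 1, 8.72 TPM in PBS 2, 11.4 TPM in AdMSC 1 and 16.3 TPM in SyMSC 1. AdMSC 1 lay between the PBS libraries, so the arms overlapped, and the log2 change of 0.39 (SE 0.22, 95% interval -0.16 to 0.93) did not pass (limma adjusted p = 0.196). With 1 library left out it ran from 0.15 without SyMSC 1 and 0.18 without PBS 2 to 0.59 without PBS 1 and 0.63 without AdMSC 1, and it did not pass in any of these. Asl (gene ID 59085), the lyase that completes the step, stood at 17.3 and 24.6 TPM in the PBS libraries and 22.7 and 26.5 TPM in AdMSC 1 and SyMSC 1. These arms overlapped too, with a log2 change of 0.24 (SE 0.19, 95% interval -0.23 to 0.71, limma adjusted p = 0.345) that turned to -0.0020 without PBS 1. Ass1 transcript exceeded Nos2 transcript 24.75-fold in PBS 1 and 5.89-fold in PBS 2, and Nos2 exceeded Ass1 7.19-fold in AdMSC 1 and 14.4-fold in SyMSC 1.

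Slc7a1 (gene ID 25648), the widely expressed arginine importer CAT-1, stood at 2.98 and 1.87 TPM in PBS 1 and PBS 2 and at 4.99 and 3.63 TPM in AdMSC 1 and SyMSC 1. The arms did not overlap, but the log2 change of 0.64 (SE 0.24, 95% interval 0.05 to 1.23) did not pass (limma adjusted p = 0.0713). It passed without PBS 1 (0.88, limma adjusted p = 0.0421), and without PBS 2 the change was 0.40 (limma adjusted p = 0.288). Slc7a2 (gene ID 64554), which encodes CAT-2, the importer linked to the inducible synthase in activated macrophages, stood at 9.26 and 8.83 TPM with PBS and 11.9 and 9.95 TPM in AdMSC 1 and SyMSC 1. Its log2 change was 0.24 (SE 0.16, 95% interval -0.14 to 0.62, limma adjusted p = 0.239), and without AdMSC 1 it was 0.12. Slc7a2 exceeded Slc7a1 3.11-fold and 4.72-fold in the PBS libraries and 2.39-fold and 2.74-fold in the injected ones.

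Carriers and urea cycle genes outside the 10 were followed as well. Of 5 tested genes of arginine and ornithine transport and the urea cycle, 3 rose and 2 did not pass. This is 60.0% called, beside 48.4% of all genes, with a median change of 0.60. Slc7a7, a light chain of the exchanger that handles arginine together with Slc3a2, rose from 19.2 and 19.5 TPM with PBS to 46.2 and 44.3 TPM in AdMSC 1 and SyMSC 1 (log2 change 1.18, SE 0.12, limma adjusted p = 0.000963). Its relative Slc7a6 rose by 0.89 and the shared heavy chain gene Slc3a2 by 0.60. Slc3a2 did not pass without PBS 1 (limma adjusted p = 0.0691). Otc, the urea cycle enzyme that uses ornithine, was at or below 0.58 TPM in every library and was not tested.

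Odc1 (gene ID 24609), which turns ornithine into the first polyamine, putrescine, stood at 34.2 and 28.2 TPM in PBS 1 and PBS 2 and at 53.5 and 47.7 TPM in AdMSC 1 and SyMSC 1. The arms did not overlap. The log2 change was 0.68 (SE 0.15, 95% interval 0.32 to 1.04, limma adjusted p = 0.0114), 1.62 times the PBS mean. Without PBS 2 it was 0.55 and no longer passed (limma adjusted p = 0.0686).

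Genes of polyamine synthesis, control and breakdown mostly changed, and in both directions. Of 16 tested, 9 rose, 3 fell and 4 did not pass (75.0% called, beside 48.4% of all genes). Their median change was 0.55. Those with the largest changes act in breakdown, transport or control: Smox, the spermine oxidase, went from 17.6 and 13.9 TPM with PBS to 49.5 TPM in AdMSC 1 and 114 TPM in SyMSC 1 (log2 change 2.19). Atp13a3, a polyamine transporter, rose by 1.44, from 0.17 and 0.80 TPM with PBS to 2.95 and 2.91 TPM in AdMSC 1 and SyMSC 1. Sat1, which acetylates polyamines for export and breakdown, rose by 0.98. Sat2, a relative of Sat1, fell by 1.46. The 9 rises became 5 without PBS 1 and 5 without PBS 2, and the limma call of Smox ended without PBS 1 (adjusted p = 0.118) or PBS 2 (0.145).

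Genes that handle proline and creatine, to which ornithine and arginine lead, did not rise as a group. Of 10 genes of proline and creatine synthesis, breakdown or transport, 1 rose, 3 fell and 6 did not pass (40.0% called, beside 48.4% of all genes). Their median change was -0.05. Gatm, which takes arginine into creatine synthesis, rose from 9.24 and 11.5 TPM with PBS to 43.5 and 42.4 TPM in AdMSC 1 and SyMSC 1 (log2 change 1.96, SE 0.15, limma adjusted p = 0.00045). Slc6a8, the creatine importer, fell by 1.24. Aldh18a1, an enzyme on the way to proline, fell by 0.67 and Prodh, which breaks proline down, fell by 0.97. The limma call of Aldh18a1 ended without PBS 1 (adjusted p = 0.0943) or SyMSC 1 (0.0826), and that of Prodh without PBS 2 (0.163), AdMSC 1 (0.121) or SyMSC 1 (0.172). The 3 falls became 1 without SyMSC 1.

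**Figure D4:**
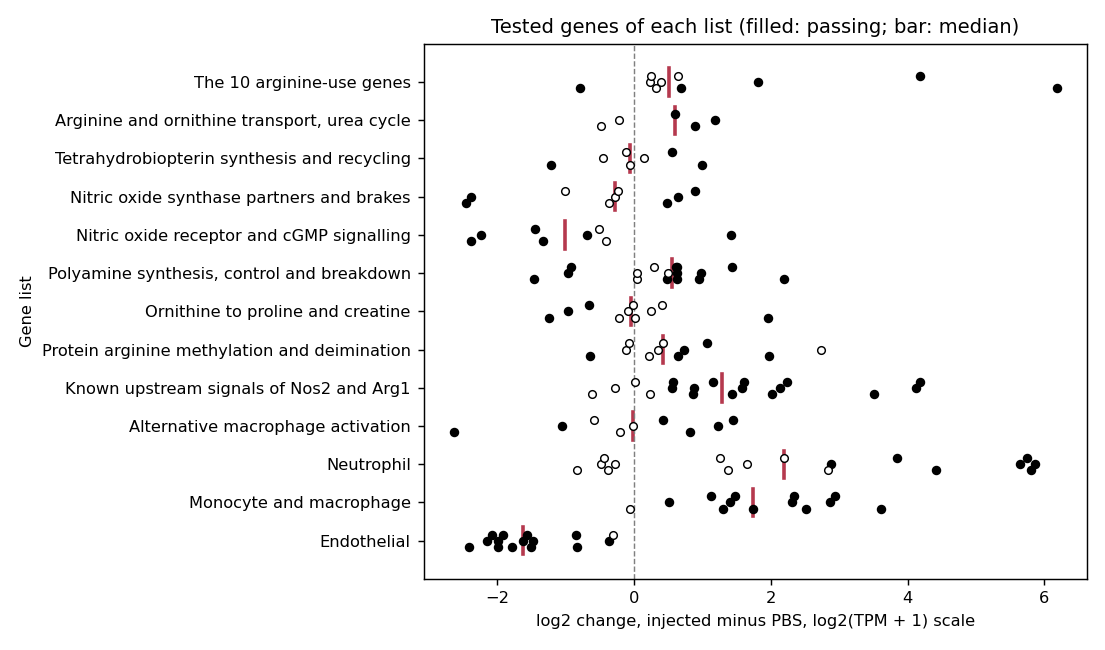
Each point is a tested gene, placed by its log2 change between injected and PBS libraries; filled points passed at an adjusted p under 0.05 and the red bar is the list's median. The 10 arginine genes have a median of 0.51. The nitric oxide receptor list (-1.01) and the endothelial list (-1.62) have the lowest medians of the lists shown, and some other lists also have medians below 0.

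Downstream of nitric oxide, transcripts of the receptor were lower after injection. Of 8 genes of the nitric oxide receptor and cGMP signalling, 1 rose, 5 fell and 2 did not pass. This is 75.0% called, beside 48.4% of all genes, with a median change of -1.01. Gucy1a1, a subunit of the soluble guanylate cyclase that senses nitric oxide, went from 15.0 and 18.7 TPM with PBS to 3.30 TPM in AdMSC 1 and 1.68 TPM in SyMSC 1 (log2 change -2.39, SE 0.26, limma adjusted p = 0.00113). Its partner Gucy1b1 fell by 1.44 and Pde2a, a phosphodiesterase that cGMP activates, fell by 2.24. Vasp, a cytoskeletal target of the cGMP-dependent kinase, rose by 1.41. Endothelial and synovial fibroblast marker genes also fell (median log2 changes -1.62 and -1.80). Their part in the falls given in this paragraph was not tested. Among partners and brakes of the synthases, 3 of 9 rose, 2 fell and 4 did not pass. This is 55.6% called, beside 48.4% of all genes, with a median change of -0.28. Ddah2, a relative of Ddah1, fell by 2.45, and Cav1, the caveolar protein that holds the Nos3 enzyme inactive, fell by 2.38. Ddah1 itself did not pass (log2 change -1.01, limma adjusted p = 0.162). The chaperone gene Hsp90aa1 rose by 0.89 and the calmodulin gene Calm3 by 0.64. Calm3 did not pass without PBS 2 (limma adjusted p = 0.0571), where the 3 rises of the list became 1.

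Of 18 genes for signals known to act on Nos2 or Arg1, 14 rose and 4 did not pass. This is 77.8% called, beside 48.4% of all genes, with a median change of 1.29. Il1b rose by 4.18, Il6 by 4.13, the transcription factor gene Cebpb by 3.50 and the shared GM-CSF receptor chain gene Csf2rb by 2.23. Among those that did not pass, and named after their values were seen, were Irf1 (-0.28), which carries interferon signals, the NF-kB subunit gene Rela (0.02) and Tnf (-0.61). Other genes of the same pathways, likewise named after their values were seen, rose, among them the interferon gamma receptor genes Ifngr1 (1.15) and Ifngr2 (1.61), Irf8 (1.58) and the NF-kB subunit gene Nfkb1 (0.57). Il10 was below the filter, and Ifng, Il4, Il13, Il4ra and Csf2 were not matched by symbol and were not analysed here. Tnf stood at 1.40 and 2.41 TPM with PBS, 0.0 TPM in AdMSC 1 and 2.52 TPM in SyMSC 1. Its fall without SyMSC 1 thus rests on AdMSC 1 alone, at levels whose precision is unknown. Il1b lost its limma call without PBS 1 (adjusted p = 0.12) or PBS 2 (0.0968), and that of Cebpb without AdMSC 1 (0.0645) or SyMSC 1 (0.0964).

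The last comparison asked whether the 10 genes differed by cell source. It was made with limma and 3 groups, in which each lone injected library is assumed to vary like the PBS pair, with 1 residual degree of freedom. Against PBS, AdMSC 1 and SyMSC 1 gave the same calls for the 10 genes: Nos2, Arg1, Gch1 and Odc1 higher and Nos3 lower in each, beside 34.4% of all genes called for AdMSC 1 (17.9% higher, 16.5% lower) and 40.2% for SyMSC 1 (18.2% higher, 22.0% lower). These comparisons share the PBS libraries. For Nos2 the log2 change was 5.44 in AdMSC 1 and 6.94 in SyMSC 1, and 6.42 and 7.93 with a pseudocount of 0.1. The error behind its calls comes from PBS libraries at 0.48 and 1.48 TPM, where adding 1 narrows the spread. For Gch1 it was 1.50 in AdMSC 1 (SE 0.21, limma adjusted p = 0.00768) and 2.13 in SyMSC 1 (SE 0.21, limma adjusted p = 0.00218). With no filter on low values none of these calls held (limma, 0 of all genes in either comparison).

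Set directly against each other, SyMSC 1 and AdMSC 1 differed in none of the 10 genes by limma's adjusted p, beside 0.0% of all 13371 genes. An unadjusted p under 0.05 was reached by 2 of the 10 (Nos2 and Gch1) and by 861 genes (6.44%). With 1 library per source, these p-values and the intervals that follow rest on the spread of the PBS pair alone and do not establish a difference between the sources. Nos2 was 2.86 times as high in SyMSC 1 as in AdMSC 1, a log2 difference of 1.50 (95% interval 0.39 to 2.62, limma adjusted p = 0.673). It was the 1 gene of the 10 with a ratio of TPM + 1 of at least 2, which 2.09% of all tested genes reached in either direction and 1.32% with SyMSC 1 higher, beside 2.31% between the PBS libraries. The PBS libraries, which share a treatment, differed 3.08-fold in Nos2 in the same direction by title word, though at about 1 TPM. Gch1 was 1.59 times as high in SyMSC 1 (log2 difference 0.63, 95% interval 0.0011 to 1.26, limma adjusted p = 0.775) and Ass1 1.43 times as high (0.48, 95% interval -0.20 to 1.16, limma adjusted p = 0.837). Arg1 was 1.10 times as high in AdMSC 1, a log2 difference for SyMSC 1 minus AdMSC 1 of -0.14 (95% interval -0.58 to 0.29, limma adjusted p = 0.919). In all, 4 of the 10 (Nos2, Gch1, Ass1 and Asl) were higher in SyMSC 1 and 6 in AdMSC 1. With 1 library per source, the source cannot be told apart from the library. The summed neutrophil level was 1.82 times and the summed macrophage level 1.35 times as high in SyMSC 1 as in AdMSC 1. S100a8 and S100a9 were the largest parts of the neutrophil sum (628 and 845 TPM in AdMSC 1, 1149 and 1521 TPM in SyMSC 1). Most of the macrophage sum was Lyz2 (19301 TPM in AdMSC 1 and 27210 TPM in SyMSC 1). Of that list, Cd68, Msr1 and Cx3cr1 were lower in SyMSC 1 and the other tested genes higher. The part of these levels in the Nos2 difference was not tested.

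**Figure D5:**
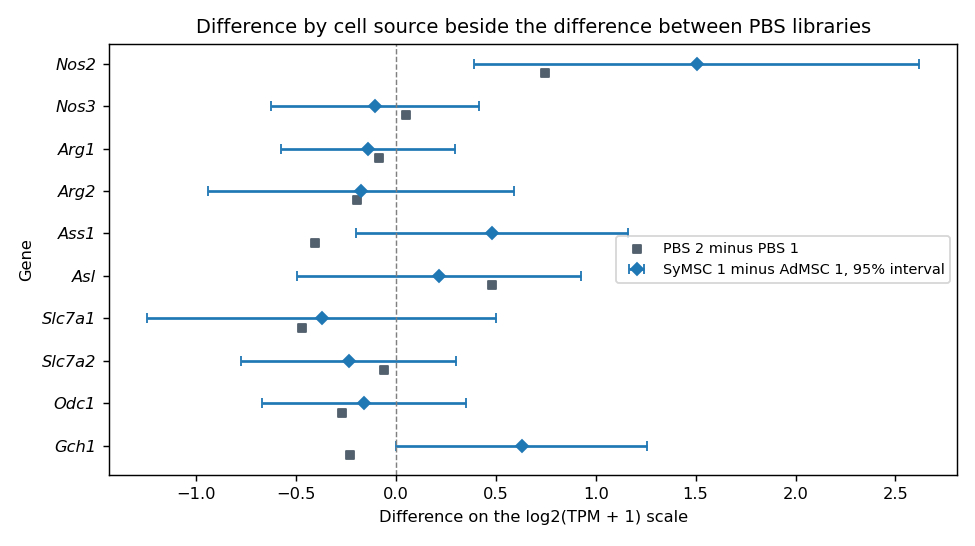
Difference between SyMSC 1 and AdMSC 1 on the log2(TPM + 1) scale with its unadjusted 95% interval from the 3-group limma fit (diamonds), beside the difference between PBS 2 and PBS 1 (squares). The intervals rest on the spread of the PBS pair, and no gene passed with adjustment over all genes; Nos2 has the largest difference of the 10 (1.50).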

How the data were processed

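The authors deposited TPM (named so in the file headers) with 2 decimals. Each library sums to 1000000 over 17899 rat genes, and read depth is unknown. HISAT2 2.0.4 and build Rnor_6.0 stand in the submitters' processing notes, with no role stated. The labels used here name no counting tool or annotation. Genes were joined by NCBI Gene ID, 16718 of which were in the RefSeq table (GRCr8), used for names and promoter sequence.

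Values were taken as log2(TPM + 1), and limma 3.58.1 in R 4.3.3 (eBayes, trend and robust, Benjamini-Hochberg over 13371 genes) compared injected with PBS libraries, and again with 3 groups. The procedure was tested on simulated data with normal errors, few changed genes and no difference between the injected libraries. In the real data 48.4% of genes passed and the injected libraries differ in source, so that test does not cover these conditions. Alternatives were RLE and upper quartile scaling, no filter, a pseudocount of 0.1, the title word as a block and each library left out. Of 208 list entries in 17 lists, 195 were matched. Named were all 10 genes; for each list up to 4 called genes with the largest change; and, for 4 genes, the 5 with the nearest profile. Genes outside this rule are given to describe a count. Some genes that enter the list counts are not reported here by name. The 10 genes and the lists were chosen with earlier results of these data known.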

Additional observations from a re-analysis of the deposited data

Results flagged for a closer look

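Ass1 moved in opposite directions in the pairs of libraries that share a title word. On the log2(TPM + 1) scale AdMSC 1 minus PBS 1 was -0.056, and SyMSC 1 minus PBS 2 was 0.83. Each side is 1 library against 1, and the difference between the pairs was not tested.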

How the results depend on the processing

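Of the 10 genes, 5 passed for injected against PBS; with 1 library left out 3 to 5 passed (3 without PBS 2, where Nos2 and Odc1 were lost), while the count over all genes was 4590 to 5379 beside 6476. Without PBS 1, Nos2 was lost as well and Slc7a1 was gained, so the count stayed the same with a different set of genes. Arg1, Gch1 and Nos3 passed in all 9 alternatives. In the 3-group comparison with no filter on low values, 0 of all genes and 0 of the 10 passed for AdMSC against PBS (4600 and 5 with the filter) and 0 and 0 for SyMSC against PBS (5374 and 5); the cause was not tested. With 1 library left out the log2 change crossed 0 for Asl (-0.0020 to 0.48, lowest without PBS 1), Tnf (-1.52 to 0.30, highest without AdMSC 1) and Rela (-0.014 to 0.049, lowest without SyMSC 1), none of which had passed. With the title word as a replicate block, 6590 genes and 6 of the 10 passed, the addition being Slc7a1 (limma adjusted p = 0.0380); the title words are not stated to pair animals, and the deviations of libraries that share a word correlated at 0.117 across genes. List counts, chosen for this check after the data were seen, moved by more than 1.5 times in 19 cases, among them synthase partners that rose (1 without PBS 2, beside 3), proline and creatine genes that fell (1 without SyMSC 1 or with no filter, beside 3) and neutrophil genes that rose (4 without SyMSC 1, beside 7). Leaving out an injected library leaves the other against the PBS pair: for Nos2 the log2 change was 6.94 without AdMSC 1 and 5.44 without SyMSC 1. Leaving a PBS library out of the 3-group comparison leaves no residual degree of freedom, so that was not run. Read depth, which would set the precision of Arg2 and of Nos2 in PBS tissue, is unknown.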

Other observations

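Proteins carry arginine that is changed in place, and genes for these enzymes were followed as well. Of 11 genes of protein arginine methylation and deimination, 4 rose, 1 fell and 6 did not pass (45.5% called, beside 48.4% of all genes; median 0.43). Padi3, a deiminase that turns protein-bound arginine into citrulline, went from 0.49 and 0.05 TPM in PBS 1 and PBS 2 to 4.81 TPM in AdMSC 1 and 3.13 TPM in SyMSC 1 (log2 change 1.97, SE 0.27, limma adjusted p = 0.00218). Padi2, a second deiminase, rose by 1.06, from 0.61 and 0.35 TPM with PBS to 2.53 and 1.69 TPM in AdMSC 1 and SyMSC 1. The methyltransferase gene Prmt3 rose by 0.73, while Prmt2 fell by 0.65. Padi4, also a deiminase, had the largest change of the list (2.73) but did not pass (limma adjusted p = 0.0504). It stood at 0.30 and 0.06 TPM with PBS, 2.93 TPM in AdMSC 1 and 14.5 TPM in SyMSC 1. The limma call of Padi2 ended without AdMSC 1 (adjusted p = 0.0535), that of Prmt3 without AdMSC 1 (0.0582) and that of Prmt2 without PBS 2 (0.117), AdMSC 1 (0.0621) or SyMSC 1 (0.073).

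Other genes used as signs of alternative macrophage activation, a state of which Arg1 is a classical marker in rodents, divided. Retnla and Chil3 of this list were not matched by symbol and were not analysed here. Of 9 tested, 4 rose, 2 fell and 3 did not pass (66.7% called, beside 48.4% of all genes). Their median change was -0.01. Ccl22, a chemokine gene, rose by 1.44 and the mannose receptor gene Mrc1 by 1.22. Ccl24, an eosinophil chemoattractant gene of the same set, went from 20.2 and 31.6 TPM with PBS to 3.69 TPM in AdMSC 1 and 2.81 TPM in SyMSC 1 (log2 change -2.64, SE 0.24, limma adjusted p = 0.000682), and Socs1, a cytokine signalling inhibitor, fell by 1.06. The limma call of Socs1 ended without SyMSC 1 (adjusted p = 0.0651).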
